A study of Mus musculus with 20 samples.

Results

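The genes described here encode the proton pump of the lysosome, the vacuolar ATPase (V-ATPase), and the machinery on the lysosome surface that controls the kinase complex mTORC1. They were chosen by symbol alone: every row of the expression table named Atp6v or Atp6ap, the 5 Lamtor genes, the 4 Rrag genes and 15 further genes (Flcn, Fnip1, Fnip2, Tfeb, Tfe3, Mitf, Mtor, Rptor, Mlst8, Depdc5, Nprl2, Nprl3, Slc38a9, Tsc1 and Tsc2). The rule found 44 of the 13225 genes. No measured value entered it, but the set was chosen with earlier results of these data known. They comprised 9 subunits of the V1 sector, 8 of the V0 sector, 1 V0 pseudogene (Atp6v0c.ps2), 2 accessory subunits, 5 Ragulator subunits, 4 Rag GTPases, 3 genes of the folliculin complex, 3 MiT/TFE transcription factors, 3 core subunits of mTORC1, 3 of GATOR1, Slc38a9 and both TSC genes. The table has no row for Atp6v1b1, Atp6v1c2, Atp6v1e2, Atp6v1g3, Atp6v0a4 or Atp6ap1l, which were not analysed here.

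The RNA came from mouse alveolar macrophages sorted as CD45+, SiglecF+ and CD11c+ cells. The 4 groups were WT mice (wild type, strain C57BL/6) in air, WT mice in cigarette smoke, miR-155 KO mice (strain B6.Cg-Mir155tm1.1Rsky/J) in air and miR-155 KO mice in cigarette smoke. Exposure lasted 4 weeks, and each group had 5 mice with 1 library each, 20 in all. Every KO mouse was of 1 strain, so the knockout and any other difference between that strain and the WT mice cannot be told apart, and the sources used here do not state the age or sex of the mice. P values weigh a difference against the spread between mice within groups, estimated for each gene over all 4 groups together.

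The V-ATPase hydrolyses ATP in its cytosolic V1 sector to turn a rotor, and the membrane V0 sector couples that rotation to the transport of protons into the lysosome, which acid hydrolases need. In macrophages this acidification serves the digestion of engulfed particles. Ragulator anchors the Rag GTPases to the lysosome beside the pump, and amino acids set the Rag GTPases to recruit mTORC1, while the folliculin complex acts on RagC and RagD. mTORC1 in turn keeps the MiT/TFE factors in the cytosol, and these factors bind an E-box with the core CACGTG in promoters of lysosomal genes, V-ATPase subunits among them.

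Promoters were available in RefSeq for 36 of the 44 genes. Some are printed because they hold the E-box core described above. The sequence TCACGTG, read on both strands and always containing CACGTG, occurred between 250 bases before and 50 bases after the start in 9 of the 36 (25%): Atp6v0b, Atp6v0d1, Atp6v0e, Atp6v1a, Fnip1, Lamtor1, Lamtor4, Rragb and Rragc. It occurred in 7.15% of the 9401 genes of the expression table with a RefSeq promoter and in 4.29% of all 27025 genes with one. The shorter CACGTG occurred in the same 9 genes and in 12.1% of the 9401. The last 150 bases before the start of 4 of them follow, 5′ to 3′ on the strand of the gene, build GRCm38.p6 in RefSeq, with every TCACGTG and its reverse complement CACGTGA in capitals.
Atp6v1a: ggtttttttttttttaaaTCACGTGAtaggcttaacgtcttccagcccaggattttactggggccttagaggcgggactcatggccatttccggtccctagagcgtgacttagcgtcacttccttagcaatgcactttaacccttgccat
Atp6v0b: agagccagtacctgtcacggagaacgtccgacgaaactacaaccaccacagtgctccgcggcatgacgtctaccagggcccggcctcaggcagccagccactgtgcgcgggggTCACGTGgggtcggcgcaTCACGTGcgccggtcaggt
Lamtor1: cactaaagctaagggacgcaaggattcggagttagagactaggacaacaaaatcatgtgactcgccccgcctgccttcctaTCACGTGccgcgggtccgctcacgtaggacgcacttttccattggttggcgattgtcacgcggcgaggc
Rragc: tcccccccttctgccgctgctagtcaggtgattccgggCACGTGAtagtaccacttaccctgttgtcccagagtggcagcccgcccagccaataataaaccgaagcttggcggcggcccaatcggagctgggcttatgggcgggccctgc
They lie at chr16:44139260-44139409 on the minus strand for Atp6v1a, chr4:117887330-117887479 on the minus strand for Atp6v0b, chr7:101905687-101905836 on the plus strand for Lamtor1 and chr4:123917283-123917432 on the plus strand for Rragc. The first base of CACGTG stood 131 bases before the start in Atp6v1a, 36 and 18 in Atp6v0b, 68 in Lamtor1 and 112 in Rragc. In Atp6v1a the site is a palindrome of 8 letters, so both strands match. Starts are those of RefSeq. In the GENCODE M21 annotation the Atp6v1a gene begins at 44139705 on the minus strand, so its printed bases lie inside that gene. The Atp6v0e gene begins there at 26663231 on the plus strand. Its searched window, chr17:26676146-26676445, which holds the motif, likewise lies inside the gene. A match is a description of the letters only, and binding was not measured.

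Expression was deposited on a log2 CPM scale, where CPM relates a gene's reads to the library total. The libraries held 6885680 to 11952088 reads. In 3 KO air libraries (mice IIIb2, IIIb3 and IIIb4) between 1451 and 1645 genes had no read, against 259 to 1224 in the other 17. The host gene of miR-155, Mir155hg, had 0 to 21 reads per library and was without a read in 4 of 10 WT and 5 of 10 KO libraries, so at this depth it does not check the genotype labels. Markers of alveolar macrophages were abundant in each group, at a summed 25850 to 31880 CPM over 10 genes, though the gate gene Siglecf fell with smoke by 1.25 in WT and by 1.15 in KO mice on the log2 scale (limma adjusted p 2.25e-08 and 1.41e-07). The list was mixed: 2 of the 10 were called higher and 4 lower in WT smoke, with a median log2 change of -0.099. In KO smoke 3 were higher and 3 lower, with a median of 0.007. Markers of other cells were scarcer: the monocyte and interstitial macrophage list summed to 154 to 177 CPM in WT air, 113 to 354 in WT smoke, 145 to 209 in KO air and 97.1 to 128 in KO smoke. The neutrophil list summed to 90.3 to 129, 159 to 357, 86.1 to 134 and 139 to 314 CPM in the same order. C1qa, Ly6c2 and S100a9 had no read in any WT air library. Lists for eosinophils, B cells, and endothelium and stroma had no gene in the table. The sums of some other lists moved with smoke too: the T and NK cell list (2 of 6 genes measured) summed to 0.571 to 1.71 CPM in WT air, 7.47 to 41.2 in WT smoke, 0 to 1.26 in KO air and 0.642 to 6.08 in KO smoke. The dendritic cell list (4 of 6) summed to 14.3 to 26.8, 22.7 to 36.3, 11.3 to 22.3 and 17.7 to 27.5 CPM in that order. The epithelial list (4 of 5) summed to 52.1 to 89.8, 10.5 to 27.1, 53.6 to 112 and 16.3 to 41.3 CPM. A sum can rest on a few abundant genes, and in some lists genes moved both ways. Of the epithelial genes 1 was called higher and 1 lower in WT smoke (median log2 change 0.254), and 0 and 1 in KO smoke (0.01). For the monocyte and interstitial macrophage list the counts were 4 and 1 in WT (2.27) and 2 and 3 in KO smoke (0.704). The neutrophil list (5 of 7 genes measured) had 3 and 1 in each genotype (0.992 and 1.62). The T and NK cell list had 2 and 0 in WT (3.46) and 1 and 0 in KO smoke (1.80). The dendritic cell list had 1 and 0 in each (0.853 and 1.62). The part of these lists in the results was not tested.

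With smoke many subunits of the pump rose in both genotypes. Of the 9 genes of mTORC1, GATOR1 and TSC with Slc38a9, 0 passed the test in either, a small set beside the shares of all genes given next. In WT mice 17 of the 44 genes were called higher (38.6%) and 0 lower at a limma adjusted p under 0.05, where 9.66% of all genes were higher and 12.8% lower. In KO mice 14 were called higher (31.8%) and 1 lower, where 7.05% of all genes were higher and 8.45% lower. The median log2 change of the 44 genes was 0.24 in WT and 0.10 in KO mice, beside -0.02 and -0.01 over all genes. Well-read genes are called more often, so the same counts were taken over the 8907 genes that averaged 3 or more in log2 CPM: 11.4% of them were called higher in WT and 8.12% in KO, beside 43.6% and 30.8% of the 39 genes described here that reached that level. In bulk RNA, fewer cells of a type and less RNA per cell cannot be told apart.

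Separation of the groups was counted as well. In WT mice every smoke library exceeded every air library for 17 of the 44 genes, a pattern found in 8.15% of all genes. In KO mice this held for 12, against 4.54% of all genes. In the other direction 1 gene separated in each genotype, Atp6v1g2 in WT and Tfe3 in KO mice. The share of all genes in that direction was not counted. The genes called higher in both genotypes numbered 12: Atp6v1a, Atp6v1c1, Atp6v1d, Atp6v1e1, Atp6v0a1, Atp6v0d1, Atp6v0d2, Atp6ap1, Atp6ap2, Lamtor1, Rragc and Fnip2. Another 5 passed in WT mice alone (Atp6v1g1, Atp6v0b, Atp6v0c, Atp6v0e and Lamtor4), and the sparsely read Rragd and Atp6v0e2 passed in KO mice alone. Passing in 1 genotype alone does not show that the genotypes differ, and the difference of the smoke responses was called for 0 of the 44 genes and for 0% of all genes. The 2 smoke comparisons used different mice. Without the 3 KO air libraries the counts were 21 higher and 0 lower in WT and 10 higher and 0 lower in KO mice, where 11.9% and 4.63% of all genes were higher. That setting leaves only mice IIIa5 and IIIb1 in KO air.

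**Figure D1:**
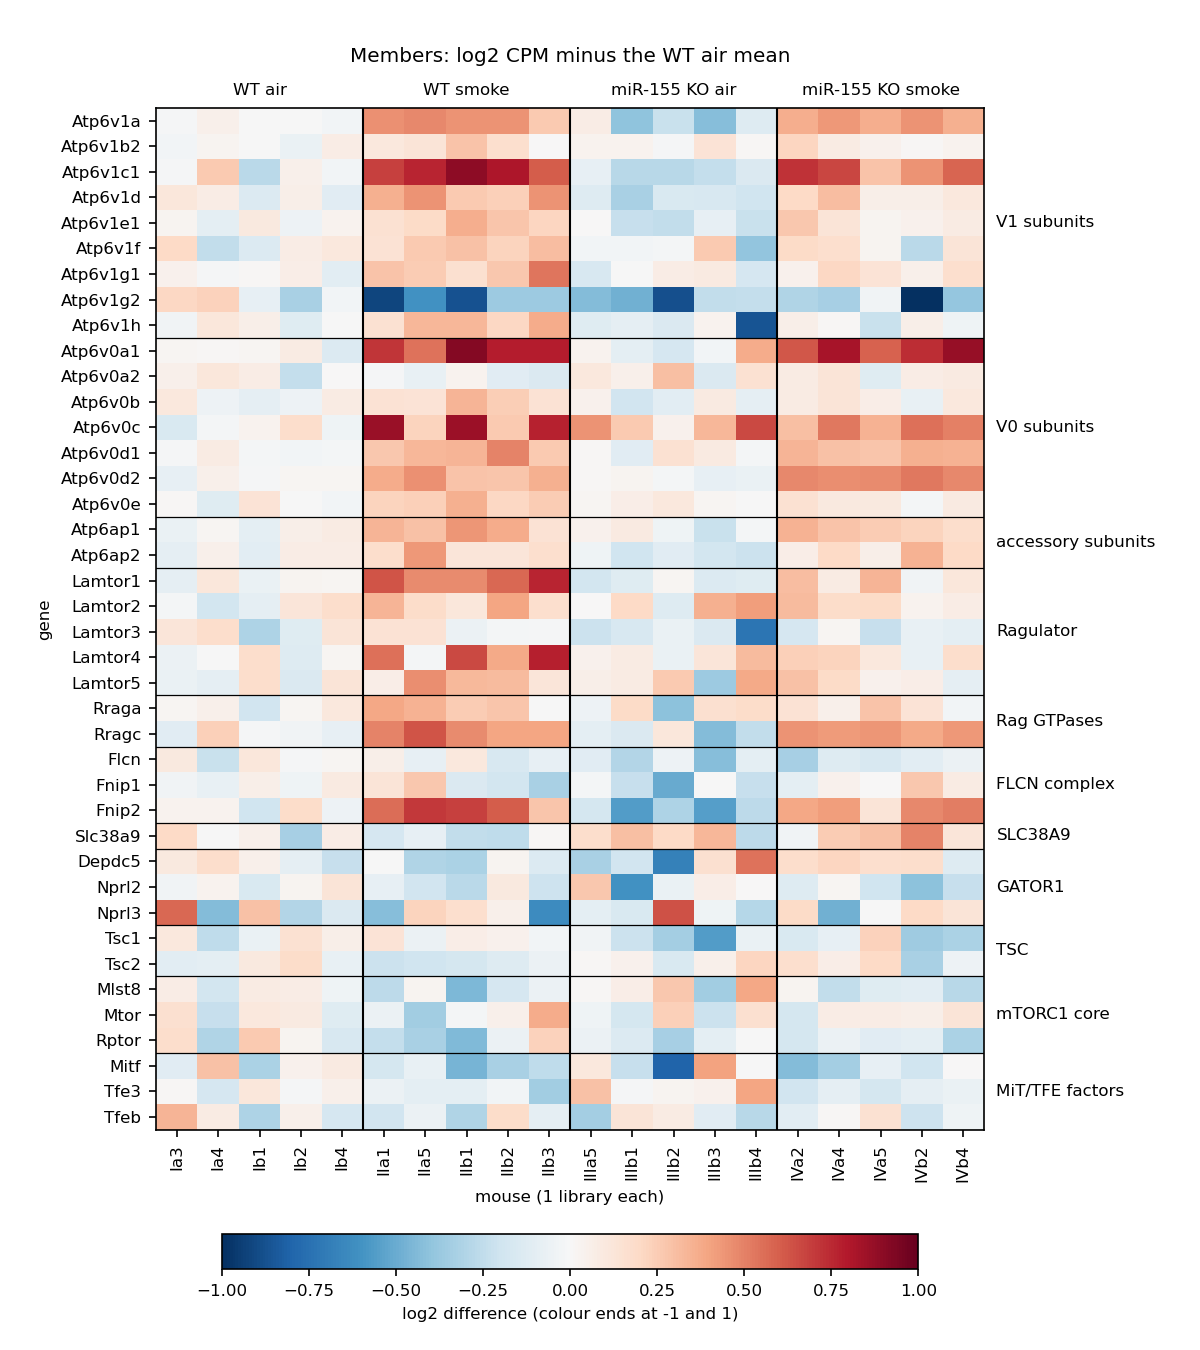
Each row is 1 of the 40 genes that averaged 3 or more in log2 CPM in some group and each column 1 mouse; colour gives log2 CPM minus the gene's WT air mean, and colours end at -1 and 1. The WT smoke columns are red for most V1, V0 and accessory subunits, Rragc and Fnip2. KO columns are also set against the WT air mean, so their colours do not show the KO smoke response alone. In KO smoke several V1 and V0 rows are pale, Atp6v1f, Atp6v1h and Atp6v0b among them, and Atp6v0c is red in KO air as well. The rows of mTORC1, TSC and GATOR1 show no block of 1 colour.

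Of the V1 subunits, which form the catalytic head and its stalks, 5 of 9 rose in WT and 4 of 9 in KO mice. Atp6v1c1, subunit C, which joins head and membrane sector when the pump assembles, moved most. Its log2 CPM was 6.88, 7.14, 6.61, 6.94 and 6.86 in WT air and 7.57, 7.65, 7.78, 7.69 and 7.49 in WT smoke. KO air mice gave 6.80, 6.61, 6.61, 6.65 and 6.74, and KO smoke mice 7.61, 7.56, 7.17, 7.33 and 7.47. The groups did not overlap in either genotype, and the change was 0.75 ± 0.09 in WT (SE, limma adjusted p 2.13e-07) and 0.75 ± 0.09 in KO mice (4.04e-07). Atp6v1a, the catalytic subunit A, stood at 8.33, 8.39, 8.34, 8.33 and 8.31 in WT air against 8.79, 8.82, 8.79, 8.79 and 8.60 in WT smoke. In KO mice it stood at 8.41, 7.94, 8.12, 7.91 and 8.21 in air and 8.70, 8.77, 8.70, 8.79 and 8.70 in smoke. Again every smoke library lay above every air library, with a rise of 0.42 ± 0.07 in WT (adjusted p 6.73e-05) and 0.61 ± 0.07 in KO mice (3.41e-07). KO air mouse IIIa5 was just above the WT air mice and the other 4 KO air mice were below them.

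Atp6v1d, the central rotor shaft, had log2 CPM of 7.30, 7.27, 7.05, 7.25 and 7.08 in WT air and 7.54, 7.64, 7.45, 7.43 and 7.64 in WT smoke. In KO mice the values were 7.06, 6.87, 7.04, 7.03 and 7.00 in air and 7.39, 7.50, 7.25, 7.25 and 7.30 in smoke. Smoke and air did not overlap in either genotype, and the rises of 0.35 ± 0.07 and 0.34 ± 0.07 were nearly equal (adjusted p 0.000477 in WT and 0.00109 in KO). Atp6v1e1, a peripheral stalk subunit, read 8.34, 8.22, 8.41, 8.27 and 8.35 in WT air, 8.47, 8.51, 8.68, 8.59 and 8.53 in WT smoke, 8.32, 8.09, 8.07, 8.23 and 8.09 in KO air and 8.58, 8.45, 8.34, 8.36 and 8.40 in KO smoke. The gap between groups was narrow but complete in both genotypes, for rises of 0.24 ± 0.06 and 0.26 ± 0.06 (adjusted p 0.00639 and 0.00433). Without the 3 KO air libraries the KO call was lost (adjusted p 0.108). Its stalk partner Atp6v1g1 gave 6.96, 6.91, 6.93, 6.98 and 6.81 in WT air, 7.20, 7.17, 7.08, 7.19 and 7.45 in WT smoke, 6.76, 6.91, 7.00, 7.01 and 6.75 in KO air and 6.96, 7.13, 7.06, 6.97 and 7.09 in KO smoke. Here WT smoke stood clear of WT air, at 0.30 ± 0.07 (adjusted p 0.00347), and the KO groups overlapped, at 0.16 ± 0.07 (0.169). The remaining V1 genes passed in neither genotype in the main fit, though some passed in WT mice under some alternatives. With the compared groups alone, Atp6v1h (limma adjusted p 0.0063) and Atp6v1f (0.0304) were called higher. Atp6v1h was also called without the 3 KO air libraries (0.0049), and Atp6v1b2 with quantile scaling (0.0272). Atp6v1h, the regulatory subunit H, differed by 0.28 in WT and 0.21 in KO mice, rotor subunit Atp6v1f by 0.25 and 0.09, Atp6v1b2 of the ATPase ring by 0.14 and 0.04, and Atp6v1g2, a G isoform best known from neurons, by -0.62 and 0.01. In WT mice Atp6v1g2 ranged from 2.93 to 3.48 in air and from 2.34 to 2.90 in smoke, without overlap.

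Of the 8 V0 subunits 6 rose in WT mice and 4 in KO mice. Atp6v0d2, the d isoform known from macrophages and osteoclasts, was the most abundant of the 44 genes per length. Its log2 CPM was 10.42, 10.55, 10.49, 10.52 and 10.52 in WT air and 10.87, 10.96, 10.79, 10.78 and 10.86 in WT smoke. KO mice had 10.51, 10.53, 10.48, 10.42 and 10.43 in air and 10.98, 10.97, 10.98, 11.03 and 10.98 in smoke. These 4 sets were tight and smoke exceeded air throughout, by 0.35 ± 0.05 in WT (adjusted p 1.41e-05) and by 0.51 ± 0.05 in KO mice (5e-08). Its paralog Atp6v0d1, the widely expressed d isoform, gave 8.28, 8.37, 8.28, 8.27 and 8.28 in WT air and 8.57, 8.63, 8.63, 8.80 and 8.56 in WT smoke. It gave 8.31, 8.18, 8.45, 8.39 and 8.27 in KO air and 8.63, 8.59, 8.57, 8.65 and 8.64 in KO smoke. It too rose without overlap, by 0.34 ± 0.06 and 0.30 ± 0.06 (adjusted p 7.07e-05 and 0.000495).

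The a subunits, which carry protons past the rotor ring, split by isoform. Atp6v0a1 read 7.80, 7.79, 7.80, 7.87 and 7.65 in WT air and 8.50, 8.33, 8.70, 8.57 and 8.56 in WT smoke, then 7.82, 7.68, 7.61, 7.76 and 8.16 in KO air and 8.40, 8.61, 8.37, 8.52 and 8.66 in KO smoke. It rose by 0.75 ± 0.08 in WT and by 0.71 ± 0.08 in KO mice, with no overlap (adjusted p 9.94e-08 and 4.2e-07). Atp6v0a2 differed by -0.06 and -0.04 and passed in neither. The lysosomal isoform a3, encoded by Tcirg1, falls outside the rule and differed by 0.17 and 0.10 (adjusted p 0.0931 and 0.414). Atp6v0c forms most of the proton-carrying ring and gave 5.56, 5.69, 5.74, 5.89 and 5.67 in WT air, 6.58, 5.93, 6.56, 5.97 and 6.49 in WT smoke, 6.16, 5.97, 5.75, 6.05 and 6.38 in KO air and 6.01, 6.24, 6.06, 6.27 and 6.21 in KO smoke. WT smoke lay above WT air, with 3 mice well above the other 2, at 0.59 ± 0.12 (adjusted p 0.00061); the KO groups overlapped at 0.10 ± 0.12 (0.661). Its transcript matches the pseudogene Atp6v0c.ps2 at 99.8% over 465 bases, so reads may be split between them. Small subunit Atp6v0e had 7.75, 7.62, 7.87, 7.73 and 7.71 in WT air, 7.96, 7.98, 8.09, 7.94 and 7.99 in WT smoke, 7.76, 7.80, 7.84, 7.76 and 7.73 in KO air and 7.89, 7.84, 7.84, 7.72 and 7.83 in KO smoke. The pattern was the same, clear in WT at 0.26 ± 0.06 (adjusted p 0.00152) and overlapping in KO mice at 0.05 ± 0.06 (0.672). Ring subunit Atp6v0b rose by 0.20 ± 0.06 in WT (adjusted p 0.0236), with 0.11 in KO mice (0.265), but the WT call was lost when mouse Ia4, Ib1, Ib2, IIb1 or IIb2 was left out (adjusted p from 0.057 to 0.0863).

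Both accessory subunits rose in both genotypes. Atp6ap1, a luminal partner that helps the pump assemble, stood at 8.83, 8.92, 8.80, 8.95 and 8.98 in WT air, 9.23, 9.18, 9.34, 9.26 and 9.04 in WT smoke, 8.94, 8.99, 8.86, 8.67 and 8.88 in KO air and 9.24, 9.18, 9.15, 9.12 and 9.07 in KO smoke. It rose by 0.32 ± 0.06 in WT and 0.29 ± 0.06 in KO mice, smoke above air throughout (adjusted p 0.000482 and 0.00222; 0.155 in KO mice without the 3 KO air libraries). Atp6ap2, also known as the prorenin receptor, had 7.77, 7.91, 7.75, 7.94 and 7.94 in WT air, 8.04, 8.30, 7.99, 7.99 and 8.03 in WT smoke, 7.82, 7.67, 7.75, 7.68 and 7.65 in KO air and 7.93, 8.07, 7.92, 8.21 and 8.06 in KO smoke. Mouse IIa5 stood above the other WT smoke mice. The rise was 0.21 ± 0.07 and 0.33 ± 0.07 (adjusted p 0.0317 and 0.00133), but the WT call was lost when mouse Ia3 (adjusted p 0.0854), Ib1 (0.0912) or IIa5 (0.114) was left out, and without a mean trend (0.0612).

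**Figure D2:**
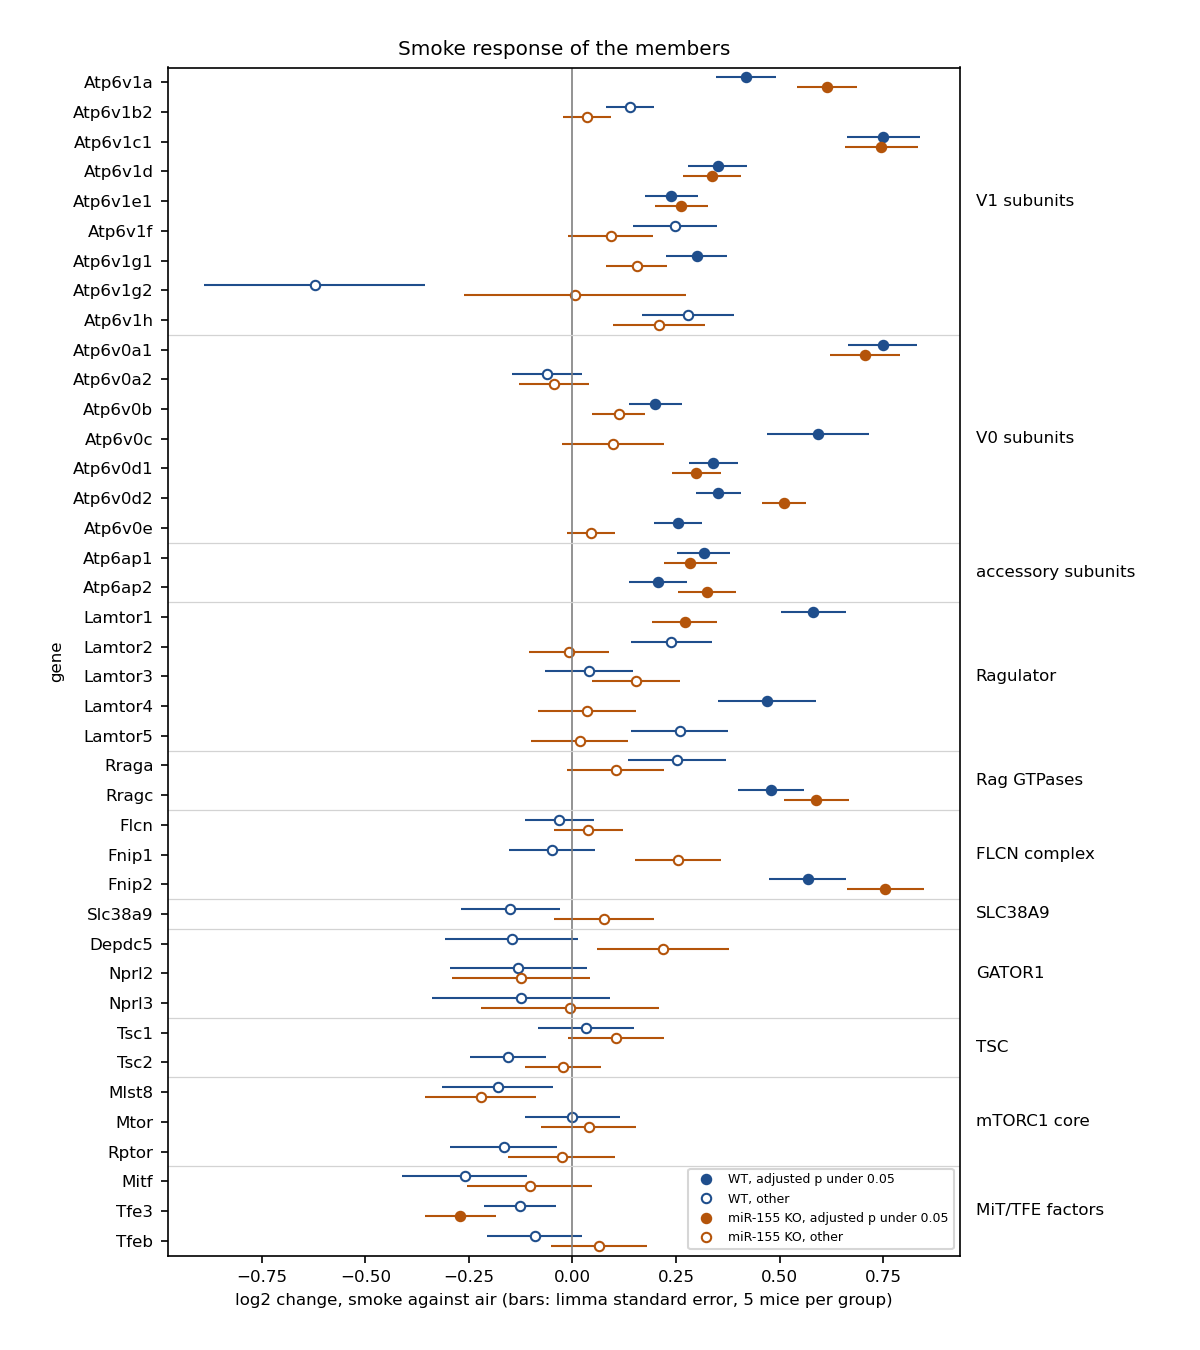
Points give the log2 change with smoke for 40 genes in WT (blue) and miR-155 KO mice (orange), bars the limma standard error, and filled points an adjusted p under 0.05. Atp6v1c1 and Atp6v0a1 lie between 0.71 and 0.75 in both genotypes, and the Ragulator genes lie farther right in WT than in KO mice except Lamtor3.

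In Ragulator 2 of 5 subunits rose in WT mice and 1 of 5 in KO mice. Lamtor1, the lipid-anchored subunit that holds the complex on the lysosome, had log2 CPM of 6.65, 6.85, 6.67, 6.77 and 6.76 in WT air and 7.37, 7.21, 7.21, 7.32 and 7.50 in WT smoke. It had 6.56, 6.62, 6.76, 6.60 and 6.62 in KO air and 7.05, 6.82, 7.08, 6.70 and 6.85 in KO smoke. WT smoke was clear of all 3 other groups, and KO smoke overlapped KO air. The rise was 0.58 ± 0.08 in WT (adjusted p 1.87e-06) and 0.27 ± 0.08 in KO mice (0.0158). The KO call was lost when mouse IVa2 (0.0574) or IVa5 (0.0573) was left out, and without the 3 KO air libraries (0.0531). Lamtor4 rose in WT mice by 0.47 ± 0.12 (adjusted p 0.00399) from a range of 5.37 to 5.67 in air to 5.48 to 6.28 in smoke, and differed by 0.04 in KO mice (0.895). The other subunits passed in neither genotype in the main fit: Lamtor2 differed by 0.24 in WT and -0.01 in KO mice, Lamtor3 by 0.04 and 0.15, and Lamtor5 by 0.26 and 0.02. Under some alternatives 2 of them were called higher in WT mice. Lamtor2 passed with the compared groups alone (limma adjusted p 0.0416), and Lamtor5 without the 3 KO air libraries (0.0482).

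The Rag GTPases work as pairs of RagA or RagB with RagC or RagD. Rragc read 7.58, 7.93, 7.68, 7.66 and 7.61 in WT air and 8.19, 8.32, 8.17, 8.09 and 8.09 in WT smoke. In KO mice it read 7.60, 7.55, 7.81, 7.26 and 7.45 in air and 8.15, 8.12, 8.14, 8.08 and 8.13 in smoke. Smoke exceeded air in every mouse of both genotypes, by 0.48 ± 0.08 and 0.59 ± 0.08 (adjusted p 4.28e-05 and 3.37e-06). Rraga differed by 0.25 in WT and 0.10 in KO mice (adjusted p 0.132 and 0.617). Rragb was nearly silent, at 0 to 12 reads per library, and passed in neither; the ratio of reads per unit of depth, smoke to air, was 0.83 in WT (95% interval 0.47 to 1.46) and 0.52 in KO mice (0.29 to 0.91, and 0.65 with an upper bound of 1.12 without mouse IVa2).

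Rragd, a reported target of the MiT/TFE factors, was read too rarely for a level in single mice. It had 16, 29, 23, 23 and 11 reads in WT air and 43, 48, 13, 49 and 27 in WT smoke. KO air gave 33, 1, 0, 2 and 0 reads, and KO smoke 43, 27, 40, 46 and 49. In log2 CPM these were 0.91, 1.82, 1.38, 1.33 and 0.37, then 1.93, 2.43, 0.60, 2.41 and 1.56, then 1.49, -2.78, -3.89, -1.46 and -4.01, then 2.32, 1.59, 2.47, 2.09 and 2.49, where a library without a read lies between -4.58 and -3.78. In KO air a single mouse (IIIa5) was at the level of the other groups and 4 mice had next to no reads. The ratio of reads per unit of depth, smoke to air, was 5.66 in KO mice (95% interval 3.96 to 8.31, counting error only) and 1.64 in WT mice (1.28 to 2.11). Mouse IIIa5 supplied 33 of the 36 KO air reads, and without it the KO ratio was 49.7 (16.8 to 243). limma called the KO change (adjusted p 7.74e-05; 0.0129 without the 3 KO air libraries) but not the WT change (0.607). The value without the 3 libraries rests on KO air mice IIIa5, with 33 reads, and IIIb1, with 1 read. Atp6v0e2, a second e isoform, followed with 6, 0, 0, 0 and 0 reads in KO air and 12, 4, 3, 8 and 6 in KO smoke (adjusted p 0.0232, lost without the 3 KO air libraries at 0.285 and without mouse IIIb1 at 0.0542 or IVa2 at 0.0674). That call was also lost with log2 of CPM plus 1 (0.0901), quantile scaling (0.133) and voom weights (0.0519). The ratio was 5.47 (2.26 to 16.0), and all 6 KO air reads came from mouse IIIa5. WT mice had 0 to 5 reads of Atp6v0e2 in air and 2 to 15 in smoke.

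In the folliculin complex, a GTPase activator for RagC and RagD, 1 of 3 genes rose in each genotype. Fnip2 stood at 7.07, 7.07, 6.84, 7.22 and 6.98 in WT air and 7.60, 7.75, 7.72, 7.65 and 7.31 in WT smoke. It stood at 6.86, 6.48, 6.73, 6.48 and 6.78 in KO air and 7.42, 7.45, 7.17, 7.51 and 7.55 in KO smoke. Every smoke mouse exceeded every air mouse of its genotype, with rises of 0.57 ± 0.09 and 0.76 ± 0.09 (adjusted p 3.62e-05 and 8.24e-07). Fnip1, its paralog, gave 6.45, 6.41, 6.54, 6.44 and 6.57 in WT air, 6.61, 6.75, 6.34, 6.30 and 6.16 in WT smoke, 6.46, 6.25, 5.98, 6.48 and 6.25 in KO air and 6.38, 6.52, 6.48, 6.75 and 6.56 in KO smoke. These overlapped, with differences of -0.05 ± 0.10 and 0.26 ± 0.10 (adjusted p 0.795 and 0.0978), though the KO difference passed with the length trend removed (0.0322) and with quantile scaling (0.0415). Flcn, the catalytic partner, gave 7.12, 6.80, 7.14, 7.01 and 7.05 in WT air, 7.08, 6.94, 7.13, 6.86 and 6.94 in WT smoke, 6.91, 6.73, 6.97, 6.60 and 6.93 in KO air and 6.69, 6.90, 6.86, 6.92 and 6.96 in KO smoke. It differed by -0.03 ± 0.08 and 0.04 ± 0.08, inside the spread of its groups (95% interval -0.20 to 0.14 in WT and -0.13 to 0.21 in KO mice).

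Of the MiT/TFE factors, which drive lysosomal genes, 0 of 3 were called higher in either genotype and 1 fell in KO mice. Tfeb read 6.53, 6.28, 5.88, 6.25 and 6.03 in WT air, 6.00, 6.14, 5.89, 6.37 and 6.11 in WT smoke, 5.85, 6.33, 6.27, 6.08 and 5.91 in KO air and 6.09, 6.20, 6.34, 5.98 and 6.15 in KO smoke. The groups overlapped widely, and the differences were -0.09 ± 0.12 and 0.06 ± 0.12 (95% interval -0.33 to 0.15 in WT and -0.17 to 0.30 in KO mice). Tfe3 read 6.50, 6.32, 6.60, 6.47 and 6.53 in WT air, 6.43, 6.39, 6.38, 6.45 and 6.14 in WT smoke, 6.78, 6.47, 6.51, 6.53 and 6.88 in KO air and 6.29, 6.40, 6.31, 6.40 and 6.42 in KO smoke. In KO mice it fell without overlap, with a change of -0.27 ± 0.09 (adjusted p 0.0288), from an air group in which mice IIIa5 and IIIb4 were high; the call was lost when mouse IIIa5 (0.075), IIIb4 (0.0997), IVa2 (0.0689) or IVa5 (0.0593) was left out, and without the 3 KO air libraries (0.134). In WT mice it differed by -0.13 ± 0.09 (0.324). Mitf read 5.84, 6.25, 5.64, 6.00 and 6.04 in WT air, 5.77, 5.88, 5.49, 5.63 and 5.70 in WT smoke, 6.06, 5.72, 5.16, 6.36 and 5.95 in KO air and 5.52, 5.62, 5.87, 5.75 and 5.96 in KO smoke. It varied most in KO air, and its differences of -0.26 ± 0.15 and -0.10 ± 0.15 did not pass (adjusted p 0.241 and 0.711). These are transcript levels, and the activity of the factors is set largely by phosphorylation, which was not measured.

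mTORC1 itself and the complexes above it held 9 genes, of which 0 passed in either direction with smoke in either genotype; 0 of the 9 had an unadjusted p under 0.05. Mtor, the kinase, stood at 6.19, 5.80, 6.13, 6.12 and 5.91 in WT air, 5.97, 5.69, 6.01, 6.08 and 6.40 in WT smoke, 5.99, 5.85, 6.27, 5.81 and 6.19 in KO air and 5.85, 6.10, 6.11, 6.09 and 6.16 in KO smoke. It differed by 0.00 ± 0.11 in WT (95% interval -0.23 to 0.23) and 0.04 ± 0.11 in KO mice (-0.19 to 0.27), so changes as large as that of Rragc lie outside these intervals. Mlst8, a stabilising subunit, gave 5.01, 4.75, 5.02, 5.01 and 4.89 in WT air, 4.67, 4.96, 4.49, 4.77 and 4.88 in WT smoke, 4.95, 5.01, 5.20, 4.59 and 5.32 in KO air and 4.96, 4.69, 4.82, 4.83 and 4.66 in KO smoke. The groups overlapped at -0.18 ± 0.14 and -0.22 ± 0.14, and Rptor, the substrate-binding subunit, differed by -0.17 and -0.03. Depdc5, a subunit of the RagA inhibitor GATOR1, gave 5.10, 5.18, 5.06, 4.91 and 4.77 in WT air, 5.00, 4.70, 4.68, 5.03 and 4.87 in WT smoke, 4.68, 4.81, 4.33, 5.16 and 5.55 in KO air and 5.18, 5.22, 5.17, 5.18 and 4.88 in KO smoke. KO air was the most scattered group, and the differences were -0.15 ± 0.16 and 0.22 ± 0.16. With that error a rise of Depdc5 as large as that of Atp6v1d in KO mice is not excluded. The other GATOR1 genes differed by -0.13 and -0.12 (Nprl2) and -0.12 and -0.01 (Nprl3, which shares exon sequence with the neighbouring Mpg).

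Tsc2, part of the complex that switches off the mTORC1 activator Rheb, gave 6.47, 6.47, 6.67, 6.76 and 6.50 in WT air, 6.36, 6.37, 6.40, 6.44 and 6.52 in WT smoke, 6.59, 6.62, 6.42, 6.63 and 6.79 in KO air and 6.75, 6.64, 6.77, 6.25 and 6.53 in KO smoke. It differed by -0.16 ± 0.09 and -0.02 ± 0.09 and its groups overlapped. Tsc2 overlaps Pkd1 on the opposite strand, which fell in WT smoke by 0.48 (adjusted p 0.00132), and the strand setting of the counting is not stated in the sources used here. Its partner Tsc1 differed by 0.03 and 0.11. Slc38a9, the arginine sensor of the lysosome membrane, gave 5.77, 5.57, 5.62, 5.24 and 5.64 in WT air, 5.40, 5.48, 5.32, 5.31 and 5.57 in WT smoke, 5.74, 5.86, 5.76, 5.90 and 5.30 in KO air and 5.53, 5.82, 5.86, 6.06 and 5.69 in KO smoke. It differed by -0.15 ± 0.12 and 0.08 ± 0.12 with overlap. The pseudogene Atp6v0c.ps2 had 0 to 13 reads per library, or -2.55, -1.74, -1.85, -1.06 and -1.83 log2 CPM in WT air, 0.25, -1.84, -0.25, -0.52 and -1.42 in WT smoke, -0.88, -4.36, -2.31, 0.97 and -0.55 in KO air and -0.66, -1.38, -2.29, -2.12 and -2.56 in KO smoke. limma called none of its differences (adjusted p 0.435 for smoke in WT and 0.832 in KO mice). The ratio of reads per unit of depth, smoke to air, was 2.61 in WT (95% interval 1.28 to 5.76) and 0.48 in KO mice (0.22 to 0.99), and KO to WT it was 2.26 in air (1.07 to 5.09) and 0.41 in smoke (0.19 to 0.83), with intervals for counting error only. Single mice carried much of these sums: without IIa1 the WT ratio was 1.99 (0.89 to 4.66), and without IIIb3 the KO ratio was 0.84 (0.35 to 2.05). Without IIIb3 the KO to WT ratio in air was 1.28 (0.52 to 3.21), and without IIa1 that in smoke was 0.54 (0.24 to 1.19).

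Levels were compared as CPM per kilobase of transcript, with lengths from GENCODE M21. In WT air Atp6v0d2 led at 570 ± 19.7 (SD, n = 5), followed by Atp6v0b at 333 ± 20.7, Atp6v1b2 at 264 ± 9.72, Atp6v1e1 at 243 ± 12.8, Atp6ap1 at 218 ± 11.7 and Atp6v0d1 at 193 ± 5.98. Atp6v0d2 was thus the d isoform read most, and with smoke it reached 728 in WT and 799 in KO mice. For the neighbours Atp6v1b2 and Atp6v1e1 the ranges of mean ± SD overlapped. mTORC1 genes sat near the bottom: Mlst8 at 7.94 ± 0.62 and Mtor at 7.66 ± 0.87 did not differ beyond their spread, and Rptor was lower at 5.84 ± 0.93. Lowest among the 40 well-read genes was Depdc5 at 4.06 ± 0.44, and Rragd, Rragb, Atp6v0e2 and Atp6v0c.ps2 were below 1.4 in every group. Within groups the SD of log2 CPM had a median of 0.12 in WT air, WT smoke and KO smoke and of 0.20 in KO air over these 40 genes. The fit shares 1 spread per gene among the groups, so comparisons with KO air do not use its own wider spread.

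Ratios of related genes within a library do not depend on its scaling. The 7 ratios were chosen after the data were seen, so they are given as descriptions with no test. The log2 ratio of Atp6v0a1 to Atp6v0a2 was 1.34 ± 0.18 in WT air and 2.15 ± 0.13 in WT smoke (SD, n = 5), and 1.27 ± 0.27 and 2.02 ± 0.09 in KO mice, without overlap in either genotype. The ratio of Fnip2 to Fnip1 was 0.56 ± 0.20 and 1.17 ± 0.19 in WT, without overlap, and 0.38 ± 0.28 and 0.88 ± 0.15 in KO mice, with overlap. That of Atp6v1g1 to the scarce Atp6v1g2 differed by 0.92 between WT smoke and air, without overlap, and by 0.15 in KO mice, with overlap. Atp6v0d2 to Atp6v0d1 differed by 0.01 in WT and by 0.21 in KO mice, and the groups overlapped. The 3 ratios among Tfeb, Tfe3 and Mitf overlapped between smoke and air in both genotypes.

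**Figure D3:**
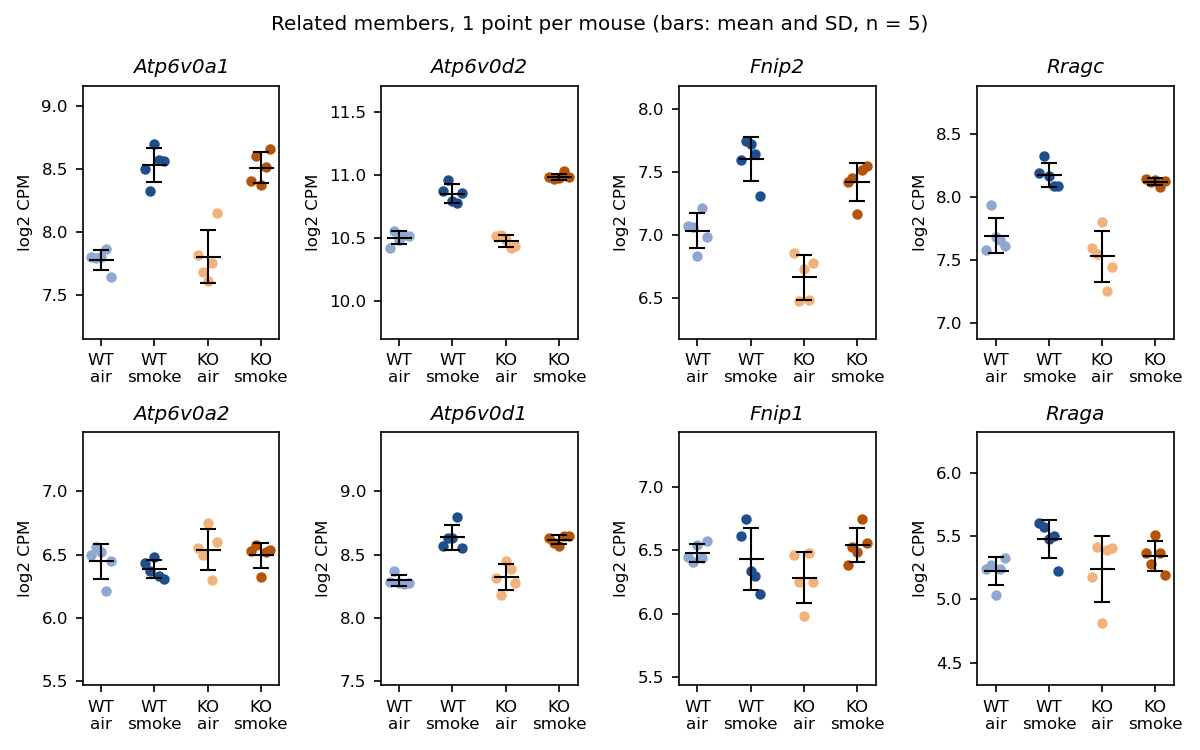
Each panel plots log2 CPM of 1 gene, 1 point per mouse in 4 groups of 5, with the mean and SD in black and a vertical span of 2 log2 units in every panel. Atp6v0a1, Fnip2 and Rragc (upper row) rise with smoke in both genotypes, and their relatives Atp6v0a2, Fnip1 and Rraga below them do not pass the test; both d isoforms rise.

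Transcript length went with the WT response. Over the 40 well-read genes Spearman's rho between length and log2 change was -0.41 in WT and -0.04 in KO mice, and 0.64 between length and the KO minus WT difference of responses, a description across genes that share libraries. The 8 genes with transcripts under 1200 bases (Atp6v0b, Atp6v0c, Atp6v1f, Atp6v1g1 and Lamtor1, 2, 4 and 5) had a median change of 0.28 in WT and 0.10 in KO mice, beside 0.04 and 0.11 for the 32 longer ones. With a length trend over all genes removed from each library, the WT medians were 0.14 and 0.15. That setting ended the WT calls of Atp6v1g1 (0.18, adjusted p 0.089), Atp6v0b (0.06, 0.5) and Atp6v1e1 (0.13, 0.131), and added Atp6v1b2 (0.17, 0.04), for 15 of the 44 genes higher in WT. In KO mice it added Fnip1 (0.30, adjusted p 0.0322). The long genes Atp6v0a1, Atp6v1a and Fnip2 were called in both genotypes with the trend removed, as were Atp6v1c1 and Rragc. RNA quality was not measured, and its part was not tested.

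**Figure D4:**
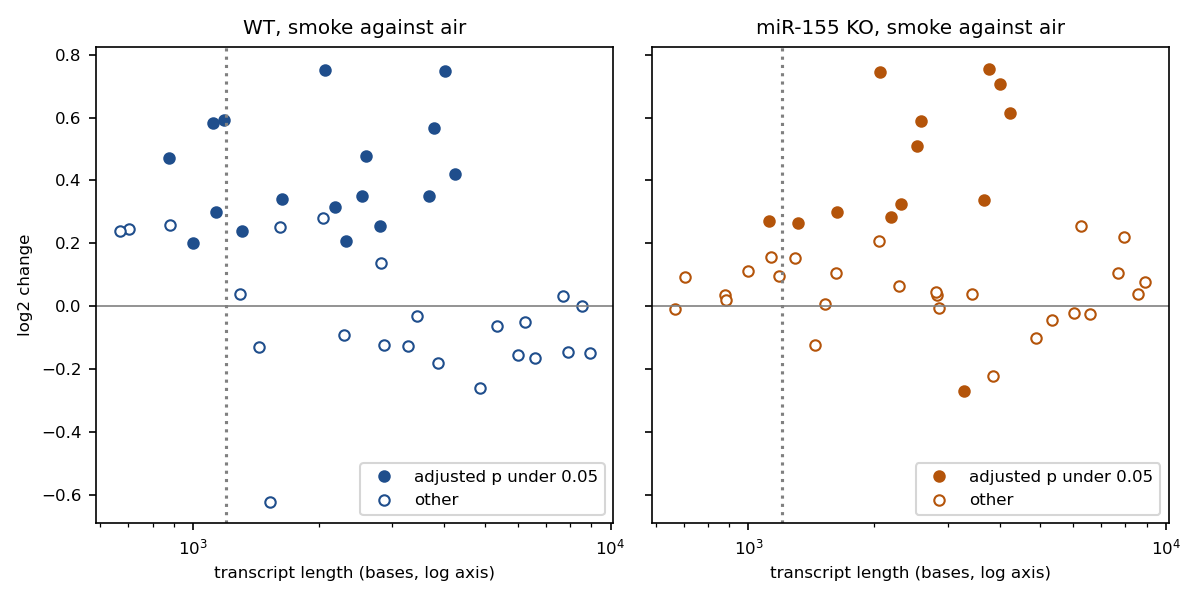
Log2 change with smoke is plotted against transcript length (bases, log axis) for 40 genes, WT left and miR-155 KO right, with filled points for an adjusted p under 0.05 and a dotted line at 1200 bases. The 8 short genes, left of that line, all lie at or above 0.20 in WT and between -0.01 and 0.27 in KO mice.

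Of the 9 genes with TCACGTG in the promoter window, 7 were higher in WT smoke and 4 in KO smoke, with median changes of 0.34 and 0.25. Of the 27 genes whose window lacks it, 7 were higher in WT and 8 in KO mice (1 lower), with medians of 0.03 and 0.08. Over all table genes with a RefSeq promoter, 10.9% of the 672 with it and 10.5% of the 8729 without it were higher in WT smoke, and 7.74% and 7.66% in KO smoke. The 9 genes were not tested against the 27, and the sets differ in make-up. All genes of mTORC1, GATOR1, TSC and the MiT/TFE factors, with Slc38a9, lacked the motif in the window. None of these was called higher in either genotype, and motif and role were not separated. Atp6v1a and Rragc, printed above, rose in both genotypes, while Fnip1 and Rragb carry the motif and passed in neither. Conversely Fnip2, Atp6v0a1 and Atp6ap1 rose in both without the motif in this window, and Atp6v0d2 and Atp6v1c1 had no RefSeq promoter to search. The Atp6v0a1 window lies at chr11:101010148-101010447. In GENCODE M21 that gene begins at 101009452, so the bases before that start were not searched. A shorter window of 100 bases before to 50 after the start held the motif in 6 of 36 (16.7%), beside 5.24% of table genes.

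Few differences between genotypes were called among these genes. In air 0 of the 44 were called higher and 1 lower in KO mice, where 0.151% of all genes were higher and 0.265% lower; 12 (27.3%) had an unadjusted p under 0.05, beside 11.6% of all genes. That gene was Rragd, whose reads are given above: the ratio of reads per unit of depth, KO air to WT air, was 0.35 (95% interval 0.23 to 0.52) with mouse IIIa5 and 0.040 (0.0081 to 0.12) without it. limma gave -3.29 ± 0.72 (adjusted p 0.0323), and -1.81 (0.615) without the 3 KO air libraries; a fitted change of this size depends on the offset given to libraries without a read. Leaving out Ia3, Ia4, Ib1, Ib2, IIIb1, IIIb2 or IIIb4 alone also ended the call (adjusted p from 0.0535 to 0.0955). In smoke 0 were higher and 1 lower, where 0.892% of all genes were higher and 0.688% lower; 10 (22.7%) had an unadjusted p under 0.05, beside 13.5% of all genes. That gene was Lamtor1, at 7.21 to 7.50 in WT smoke and 6.70 to 7.08 in KO smoke, a difference of -0.42 ± 0.08 (adjusted p 0.00282) with no overlap. With the length trend removed it was -0.29 and no longer passed (adjusted p 0.0603). Lamtor1 has 2 processed pseudogenes at 96.5% and 98.4% identity, so some of its reads may map ambiguously, as may those of Atp6v1f, Atp6v1g1, Atp6ap2, Lamtor3 and Lamtor5. Among larger differences that did not pass, Fnip2 was lower in KO air by 0.37 (adjusted p 0.0678), and Slc38a9 was 0.38 apart in smoke (0.115). limma called 0 genes for the difference of the smoke responses. An unadjusted p under 0.05 was found for 1302 genes (9.84%) and 7 of the 44 (15.9%), and voom weights on recovered reads called 0 (1267 and 6 unadjusted). The 7 were Rragd, Lamtor1, Atp6v0c, Lamtor4, Atp6v0e, Atp6v0d2 and Fnip1, with KO minus WT responses of 3.70, -0.31, -0.50, -0.44, -0.21, 0.16 and 0.31. With the length trend removed these were 3.615, -0.199, -0.389, -0.305, -0.209, 0.18 and 0.196, and the Rragd value rests on KO air libraries with few or no reads.

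MicroRNAs such as miR-155 repress transcripts through the bases of their seed, so 1 annotated 3′ UTR per gene (GENCODE M21) was searched for a match to it. The mature sequence is shown with its seed, bases 2 to 8, in capitals, and the 2 matches with the paired bases in capitals.
miR-155-5p: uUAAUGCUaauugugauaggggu
Atp6v1d: gagagtgacaccAGCATTAa
Rptor: ccatgtgatcaaAGCATTAg
miR-155-5p lies at chr16:84714143-84714165 on the plus strand (GRCm38.p6). AGCATTA occurred in 2 of 43 UTRs (4.65%) of the genes described here and in 956 of 11401 (8.39%) of the table. Neither gene was called between genotypes: Atp6v1d differed by -0.19 ± 0.07 in air and -0.21 ± 0.07 in smoke (adjusted p 0.271 and 0.154), and Rptor by -0.13 ± 0.13 and 0.01 ± 0.13 (0.748 and 0.983).

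Other genes of the pathway, taken from lists written with earlier results known, numbered 58. In WT smoke 9 (15.5%) were higher and 7 (12.1%) lower, and in KO smoke 9 (15.5%) and 5 (8.62%). The shares lower are near those of all genes, 12.8% and 8.45%, and those higher lie above 9.66% and 7.05%. Between genotypes 0 were called in either direction. Reported MiT/TFE targets supplied nearly all the rises: of 15 (Atp6v0d2 and Rragd among them) 9 were higher in WT and 10 in KO mice, with 1 lower in each. Gpnmb, a lysosomal glycoprotein, rose by 1.17 and 1.30, and the protease gene Ctsb by 0.66 and 0.50. This list was written with lysosomal results of these data known, so its direction is not independent evidence. Its 1 lower gene, named after its value was seen, was Sqstm1, the autophagy receptor p62, which fell by 0.45 in WT and by 0.35 in KO mice. Among assembly factors of the pump, Dmxl2, part of the RAVE-like complex that loads V1 onto V0, fell by 0.53 and 0.33 (adjusted p 3.29e-06 and 0.00179), Dmxl1 fell by 0.54 in WT mice (0.000336), and their partner Wdr7 rose by 0.30 in KO mice (0.0368). Lpin1, a phosphatase that mTORC1 phosphorylates, fell by 0.57 and 0.39, and Eif4ebp2, a translation repressor it phosphorylates, fell by 0.26 in WT mice (adjusted p 0.0289). Prr5l of mTORC2 fell by 0.55 and 0.53, and Borcs6 of the lysosome-positioning complex BORC fell by 0.47 in KO mice (0.043). Bmt2, the methionine pathway sensor SAMTOR, fell by 0.73 in WT mice (0.0011). Of the 5 GATOR2 genes Sec13 alone was called, at 0.29 higher in WT mice (0.0307); 0 of 4 KICSTOR genes and 0 of 5 mTORC1 partner genes, Rheb among them, were called. The osteoclast list, added since Atp6v0d2 is known from those cells, summed to 446 to 541 CPM in WT air, 664 to 723 in WT smoke, 383 to 516 in KO air and 611 to 808 in KO smoke, with Ocstamp at 0 in WT air, and its part in the rise of the pump genes was not tested.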

How the data were processed

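Poly-A RNA of sorted alveolar macrophages from 20 mice was sequenced from TruSeq mRNA libraries, per the labels' protocols. The submitters' processing notes name STAR 2.6.0c, limma and the build GRCm38.p6; the counting tool and its strand setting were not given in these sources. The authors deposited log2 CPM for 13225 genes, which follow the voom formula: every value gave back a whole read number within 0.001. Totals of 6885680 to 11952088 reads make 3 reads equal to 0.251 to 0.436 CPM.

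Here limma 3.58.1 in R 4.3.3 was fitted to all genes and 20 libraries with 1 mean per group and a mean trend, with 2-sided p values adjusted by Benjamini-Hochberg over all genes, called under 0.05. It was tested on simulated data. Errors of log2 changes are standard errors (5 mice per group). Groups came from the labels, with no pairing, as each mouse code occurs once. The 44 genes, the lists and the tests were chosen with earlier results of these data known. Values in every library are given for 8 genes chosen by name, the smallest WT smoke p of each role, up to 8 further small p values and each gene called between genotypes; ratios of reads have exact binomial 95% intervals. Near-identical copies were sought with blastn 2.17.0 (95% identity over 200 bases). Alternatives covered the variance prior, filter, pseudocount, scaling, covariate, voom weights, length and left-out libraries.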

Additional observations from a re-analysis of the deposited data

Results flagged for a closer look

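Within groups of 5 mice, 16 of 176 sets of values held 1 mouse whose gap to its nearest neighbour exceeded 0.71 of the range (Dixon's 95% limit for 5), and chance gives about 1 in 20 such sets. In KO air, mouse IIIb4 was low for Atp6v1h (log2 CPM 5.77), Lamtor3 (5.82) and Slc38a9 (5.30), mouse IIIb2 was high for Nprl3 (4.98), and mouse IIIa5 was high for Atp6v0e2 (-0.88, the single KO air library with reads of it). In KO smoke, mouse IVb2 was high for Atp6v0d2 (11.03), IVa2 low for Mtor (5.85), IVb4 low for Depdc5 (4.88) and IVa5 low for Atp6v0a2 (6.32). In WT air, mouse Ia4 was high for Rragc (7.93) and Atp6v0d1 (8.37), and Ia3 low for Rragb (-2.55). In WT smoke, mouse IIb3 was low for Atp6v1a (8.60) and Tfe3 (6.14), IIa5 high for Atp6ap2 (8.30) and IIa1 low for Rragb (-4.51, no read).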

How the results depend on the processing

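Of 34 calls on named genes 23 held under every alternative run and 11 were lost under some; none changed direction. Counts of genes called higher with smoke stayed between 15 and 21 in WT (17 as reported) and between 10 and 15 in KO mice (14 as reported). The count lower in WT was 1 without a mean trend (Atp6v1g2). In KO smoke the single lower gene, Tfe3, gave a count of 0 with quantile scaling, median centring, the compared groups alone, or without the 3 KO air libraries, and 0 to 1 with 1 library left out. In KO against WT air the count lower was 0 without a mean trend, with log2 of CPM plus 1, with quantile scaling, with the compared groups alone, with voom weights and without the 3 KO air libraries. It was also 0 with a mean of at least 1, a filter that removes Rragd before any test. With 1 library left out it was 0 to 3, and without mouse IIIa5 it held Rragd, Fnip2 and Atp6v1a. In KO against WT smoke it was 2 with the compared groups alone or without the 3 KO air libraries (Atp6v1h added), 0 with the length trend removed, and 1 to 2 with 1 library left out. The difference of responses gave 0 to 1 higher with 1 library left out: Rragd passed without mouse IIIa5 (4.60, adjusted p 0.0147). edgeR and DESeq2 were not run, since the deposited unit is log2. No paired analysis was possible because each mouse code occurs once. Depth limits Rragd, Rragb, Atp6v0e2 and Atp6v0c.ps2.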
